A study of Mus musculus with 6 samples.

Results

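PI3K, AKT, mTOR and MAPK signalling is described here through 37 genes that encode the kinases and regulators acting downstream of insulin-like receptors. The genes were chosen by name, as the rows of the expression table that carry one of 37 gene symbols, out of 52405 rows in all, and each symbol matched 1 row. The samples were proximal tubule cells taken from the kidneys of adult C57BL/6 females, none of them injured, whose ovaries were removed at postnatal day 21. Controls (Ctr) and mice with an Igf1r knockout in the proximal tubule (KO) gave 3 libraries each, and both groups share the ovariectomy. Cortex was dissociated and cells carrying the surface protein prominin-1 were captured on magnetic beads. The labels call the libraries biological replicates and do not say whether each came from its own mouse, so the p-values measure the spread between these libraries. Neither the control genotype nor the Cre driver of the knockout is given in the sources used here.

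In this pathway an activated insulin or insulin-like growth factor receptor recruits phosphoinositide 3-kinase (PI3K), whose lipid product brings the kinase AKT to the membrane. AKT then restrains FOXO transcription factors, GSK3 kinases and the TSC complex, and relief of TSC lets RHEB switch on mTOR complex 1, which promotes protein synthesis. The same receptors also feed adaptors that activate RAS and the RAF, MEK and ERK kinases. These proteins are regulated to a large extent by phosphorylation, which RNA sequencing does not measure.

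None of the members was called higher or lower in KO. Testing required a mean FPKM of at least 1 (fragments scaled to transcript length and library size), which 36 of the 37 members met. With limma and Benjamini-Hochberg adjustment over the 12770 genes tested, 0 of the 36 passed a threshold of 0.05, against 0.0235% of all genes tested. Igf1r, the gene knocked out, did not pass it (log2 change -1.55, SE 0.19, limma adjusted p = 0.267), so the lack of a call does not show the lack of a change. With the replicate number as a block 0 members passed either, against 0.0313% of genes. The change farthest from 0 was a log2 change of -0.29, that of Pik3ca. An unadjusted p under 0.05 was reached by 2 of 36 members (5.56%), against 3.51% of all genes, and no tool other than limma was run. These were Pik3ca, with lower values in KO, and Rps6kb1, with higher values, where 1.69% of all genes were lower and 1.82% higher at that level. With the block Mtor joined them, making 3 members (8.33%) against 5.64% of genes. The count was 0 without Ctr replicate 3, 1 (Pik3ca) without KO replicate 2 or KO replicate 3, and 1 (Mtor) without both libraries numbered 1. Without KO replicate 1 it stayed at 2, but the members were Sgk1 and Foxo3. Without Ctr replicate 1 it was 3, namely Mtor, Rps6kb1 and Nras. Pik3ca and Rps6kb1 were also the 2 members whose groups did not overlap with all 6 libraries (5.56% of members against 8.59% of all genes). With a single library left out, which separates groups more easily, 5 to 8 members did not overlap (13.9 to 22.2%, against 15.3 to 22.3% of all genes). Without both libraries numbered 1 there were 13 (36.1% against 28.6%). The estimate was higher in KO for 11 members and lower for 25, with a median log2 change of -0.05. Over all genes tested 43.6% of estimates were higher and 56.4% lower, and the median was -0.02.

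The intervals show how large a change the data leave room for. A log2 change of 0.5 is here a 1.41-fold change of FPKM + 1. The 95% interval of the log2 change lay within 0.5 of 0 for 34 of the 36 members (94.4%), against 72.9% of all genes tested. The exceptions were Pik3ca and Foxo3. With the replicate block the interval of Foxo3 narrowed to -0.15 to 0.43, leaving Pik3ca as the exception, with 97.2% of members against 82.1% of all genes inside. From the estimate to either end, the interval spanned a median of 0.24 over the members and 0.29 over all genes. Because 1 is added to each FPKM, the same bound leaves room for a larger change of FPKM itself in low members. With 0.1 added in place of 1, the log2 change of Rictor was -0.2 (SE 0.15), against -0.16 (SE 0.12). The intervals within 0.5 were not counted at that setting.

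**Figure D1:**
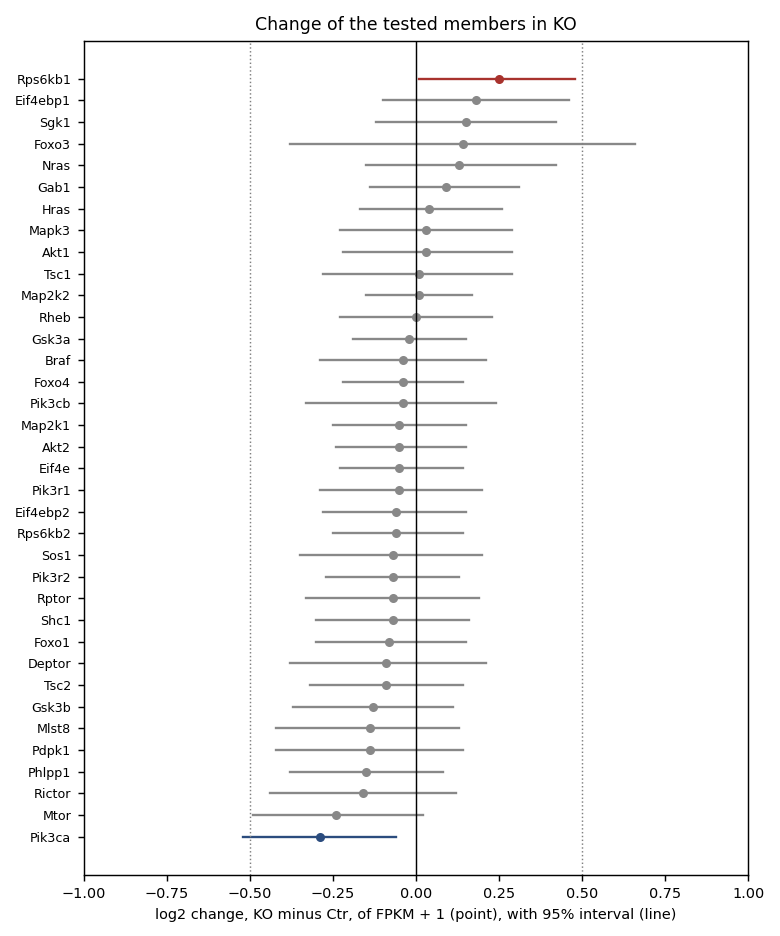
Log2 change of FPKM + 1, KO minus Ctr, of the 36 tested members (point) with its 95% interval from limma (line), ordered by size, with dotted lines at 0.5 on either side of 0. Blue marks the member with non-overlapping lower KO values (Pik3ca, -0.29) and red the one with non-overlapping higher KO values (Rps6kb1, 0.25), and no member passed adjustment over all genes.

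Facts of the whole data set bear on these values. The steps between low FPKM values put the depth at about 19900000 to 25500000 fragments per library, with 80 bases taken off each transcript length. At this depth 81.6 to 84.3% of the low values lay within 0.25 of a whole fragment, and at 0.5 times this depth 37.1 to 39.9% did. The depth and the 80 bases were those at which these values fitted whole fragments best. The shares are therefore no independent check of the depth. Igf1r was at 18.7, 15.3 and 22.7 FPKM in Ctr replicates 1, 2 and 3 and at 4.78, 7.67 and 5.08 in KO replicates 1, 2 and 3, 3.24-fold lower by the means (limma adjusted p = 0.267). All 14 markers of the proximal tubule were detected in each library, with the phosphate transporter gene Slc34a1 at 1935 to 2669 FPKM. The 14 summed to 7720 to 9350 FPKM. Transcripts of other nephron segments were present too. The 12 markers of the thick limb, distal tubule and collecting duct summed to 5050 FPKM in KO replicate 2 and to 2730 to 3720 in the others. The part of these segments in the levels of the members was not tested. Both libraries numbered 1 held more transcripts of glomerular and vascular cells. The 6 podocyte markers summed to 286 in Ctr replicate 1 and 215 in KO replicate 1 against 10.2 to 16.7 in the other 4 libraries, and the 10 endothelial markers to 243 and 193 against 20.9 to 32.6. In such bulk samples fewer cells of a type and less RNA per cell cannot be told apart.

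The promoters of Pik3ca and Rps6kb1 are shown as those of the members with non-overlapping groups, a share of members below that of all genes. They are RefSeq windows on GRCm38.p6 from 250 bases before to 50 bases after the annotated start, read 5′ to 3′ on the gene's strand. Capitals mark matches on either strand to the letters TGTTTAC (the FOXO element), CACGTG (the E-box), GGGCGG (the GC box), CGGAAG (the ETS core), TGACGT (a part of the CRE) and CGCATG (a part of the NRF1 site, added after the windows were read).
Pik3ca (chr3:32396815-32397114, plus strand): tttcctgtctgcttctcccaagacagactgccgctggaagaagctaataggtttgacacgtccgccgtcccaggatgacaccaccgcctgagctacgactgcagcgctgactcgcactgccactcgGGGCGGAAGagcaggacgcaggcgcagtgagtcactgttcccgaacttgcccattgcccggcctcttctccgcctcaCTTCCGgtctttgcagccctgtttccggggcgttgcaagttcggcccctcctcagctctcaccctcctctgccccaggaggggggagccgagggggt
Rps6kb1 (chr11:86544758-86545057, minus strand): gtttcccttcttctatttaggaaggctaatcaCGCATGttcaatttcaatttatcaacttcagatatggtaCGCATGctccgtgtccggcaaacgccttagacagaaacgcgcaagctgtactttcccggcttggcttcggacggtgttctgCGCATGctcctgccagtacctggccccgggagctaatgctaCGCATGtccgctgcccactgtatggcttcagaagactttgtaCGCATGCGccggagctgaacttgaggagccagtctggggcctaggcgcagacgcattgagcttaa
The Pik3ca window held 1 GC box overlapping 1 ETS core, and another ETS core on the opposite strand, among 300 bases with a GC content of 63.3%. This window ends at 32397114, before the gene's start at 32397671 in the GENCODE coordinates given below, so the 2 annotations place the start differently. The Rps6kb1 window, with a GC content of 53.3%, matched CGCATG or its reverse complement at 6 positions, of which the last 2 overlap. Of 32851 RefSeq promoter windows, 6.5% held these letters at all and 7 held them at 6 or more positions. The other members' windows held them at up to 2 positions, and 5 of the 48 windows of members held them at all. The letters were added after the windows were read and the cut of 6 is the count of Rps6kb1, so these counts are not a test of rarity. Windows were found for 32 of the 37 members, 48 windows in all. A member with more than 1 window could count more than once. The GC content of the 48 windows was not compared with that of all windows. GC boxes occurred in 27 of the 48 windows (24 members), against 35.7% of all windows, and ETS cores in 11 (10 members), against 16.9%. The FOXO element was in 2 of them, those of Akt1 and Nras, against 3.65% of all windows. The E-box was in 4, those of Eif4e, Nras, Rheb and Sgk1, against 7.15%, and the CRE letters in 3, against 7.51%. These matches describe letters in the windows and were not tied to any binding data.

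The members covered a wide range of levels, which FPKM, being per length, allows to be set side by side. Sgk1 had the highest mean over the 6 libraries (80.1 FPKM), above 91.6% of the genes tested. Eif4e (70.1), Map2k2 (57.9) and Rheb (57.6) came next. The lowest tested members were Rictor (2.85), Braf (3.18) and Mlst8 (3.96). Behind the tested members stood roughly 250 (Mlst8) to 8200 (Eif4e) fragments per library, taking the longest coding transcript of each gene and the depth estimated above.

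**Figure D2:**
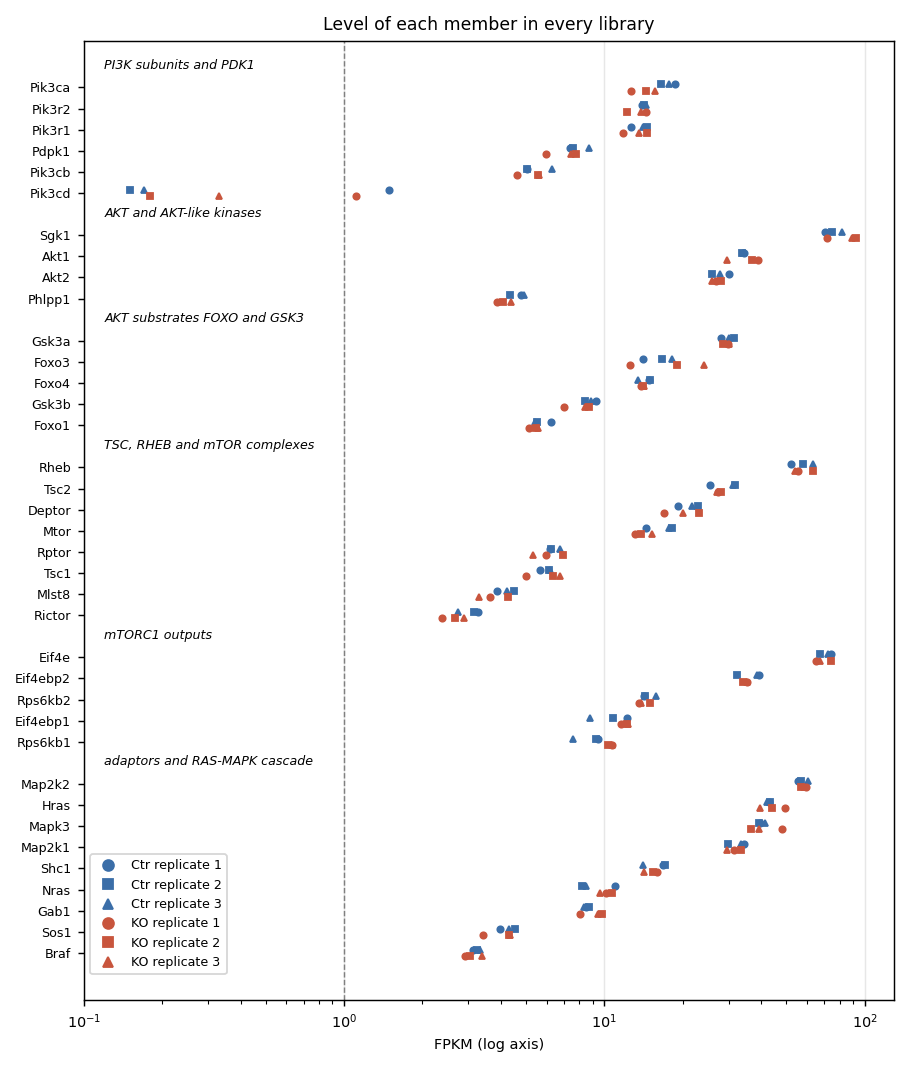
FPKM (log axis) of the 37 members in the 6 libraries, grouped by role and ordered by mean within a role, with a dashed line at 1 FPKM. Ctr and KO points lie close together for most members, from Sgk1 (70.5 to 92.8 FPKM) down to Rictor (2.38 to 3.28), and Pik3cd lies mostly below the line.

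PI3K works as a dimer of a regulatory and a catalytic subunit. Of the 6 genes for its subunits and for the kinase PDK1, 5 were tested, all 5 had a lower estimate in KO and 0 were called. Pik3ca, the gene of the alpha catalytic subunit (ENSMUSG00000027665, GRCm38 chromosome 3, 32397671 to 32468486), was at 18.7, 16.5 and 17.7 FPKM in Ctr replicates 1, 2 and 3. In KO replicates 1, 2 and 3 it was at 12.7, 14.4 and 15.7. All 3 KO values lay below all 3 Ctr values, with KO replicate 3 close under Ctr replicate 2. The means were 17.6 ± 1.07 and 14.2 ± 1.52 FPKM (SD, n = 3 libraries), a ratio of KO to Ctr of 0.808. The log2 change was -0.29 (SE 0.10, 95% interval -0.52 to -0.06), with an unadjusted p of 0.0208 and an adjusted p of 1.0 by limma. Without both libraries numbered 1 it was -0.17 (limma unadjusted p = 0.161).

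The other subunits showed smaller estimates, with overlapping groups. Pik3cb, the beta catalytic subunit, was at 5.44 ± 0.725 FPKM in Ctr and 5.25 ± 0.555 in KO (SD, n = 3 libraries), so Pik3ca was the more abundant of this pair. The regulatory subunits Pik3r1 and Pik3r2 lay at like levels, with means over the 6 libraries of 13.5 and 13.8 FPKM and log2 changes of -0.05 (SE 0.10) and -0.07 (SE 0.08). Pdpk1, the gene of PDK1, which phosphorylates AKT, was at 7.88 ± 0.72 and 7.07 ± 0.96 FPKM in Ctr and KO (SD, n = 3 libraries), a log2 change of -0.14 (SE 0.12).

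Pik3cd, the delta catalytic subunit, known mainly from leukocytes (ENSMUSG00000039936, chromosome 4, 149649168 to 149702571), stood apart from the other members. It was at 1.49, 0.15 and 0.17 FPKM in Ctr replicates 1, 2 and 3 and at 1.11, 0.18 and 0.33 in KO replicates 1, 2 and 3. Both libraries numbered 1 were high and the other 4 low, a pattern that crosses the groups. Its mean of 0.572 FPKM kept it out of the test, and it rests on roughly 16 to 160 fragments a library by the same estimate. The 12 leukocyte markers summed to 34.5 and 38.6 FPKM in Ctr replicate 1 and KO replicate 1 and to 16.2 to 21.1 in the others. Much of that sum came from Cd74, at 13.0 to 23.5 FPKM, and in the libraries numbered 1 from Lyz2, at 7.58 and 6.14. The pan-leukocyte marker Ptprc, the macrophage receptor Csf1r and Cd68 did not follow the pattern, and the other markers were higher in both libraries numbered 1 than in the rest. Ptprc was at 0.95, 1.19 and 0.72 FPKM in Ctr and 1.20, 0.78 and 0.68 in KO replicates 1, 2 and 3. Csf1r was lowest in Ctr replicate 1, at 1.20, 2.29 and 2.13 FPKM in Ctr and 1.38, 1.93 and 1.26 in KO. None of the 12 was at 0 in all libraries, and 3 were at 0 in at least 1. The part of other cell types in the level of Pik3cd was not tested.

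**Figure D3:**
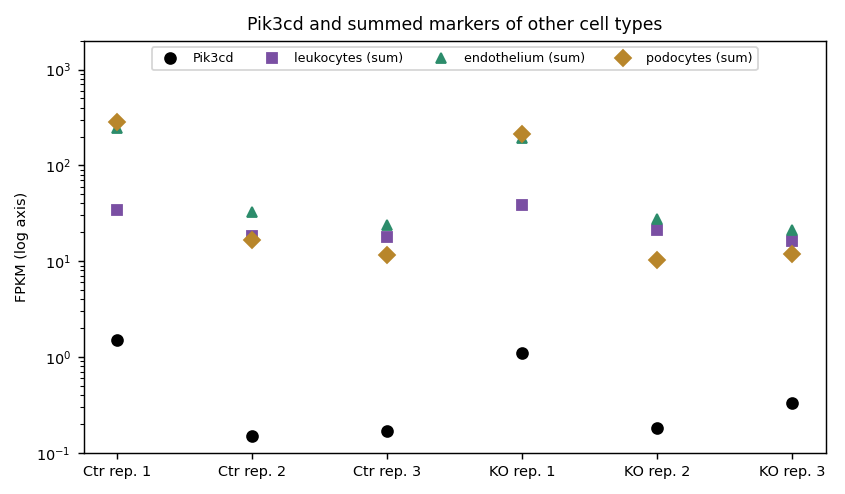
FPKM (log axis) of Pik3cd and the summed FPKM of the marker lists of leukocytes, endothelium and podocytes in the 6 libraries. Pik3cd (1.49 and 1.11 FPKM) and the 3 sums are higher in Ctr replicate 1 and KO replicate 1 than in the other 4 libraries, where Pik3cd lies at 0.15 to 0.33.

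Among AKT, the AKT-like kinase SGK1 and the AKT phosphatase gene Phlpp1, 2 of 4 had a higher estimate in KO and 0 were called. Akt1 and Akt2 encode the isoforms of AKT most linked to growth and to insulin's metabolic actions. They were at 34.1 ± 0.299 and 27.9 ± 2.11 FPKM in Ctr and at 35.1 ± 4.87 and 26.9 ± 1.08 in KO (SD, n = 3 libraries). Both groups overlapped for both genes, with log2 changes of 0.03 (SE 0.11) and -0.05 (SE 0.08).

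Sgk1, a kinase of aldosterone and stress responses that shares targets with AKT (ENSMUSG00000019970, chromosome 10, 21882184 to 21999903), was at 70.5, 74.6 and 82.0 FPKM in Ctr replicates 1, 2 and 3. In KO replicates 1, 2 and 3 it was at 71.6, 92.8 and 89.3. KO replicates 2 and 3 lay above every Ctr library, and KO replicate 1 lay among them. The log2 change was 0.15 (SE 0.11, limma adjusted p = 1.0). Without KO replicate 1 it was 0.27 (limma unadjusted p = 0.0234). The 12 genes of the dissociation response summed to 2260, 2900 and 2360 FPKM in Ctr replicates 1, 2 and 3. In KO replicates 1, 2 and 3 they summed to 1770, 3200 and 2710. Within KO this sum, like Sgk1, was lowest in replicate 1. The part of these genes in the level of Sgk1 was not tested.

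Phlpp1 had the smallest p of this role. It was at 4.78, 4.35 and 4.90 FPKM in Ctr and at 3.88, 4.06 and 4.38 in KO replicates 1, 2 and 3. KO replicate 3 lay just above Ctr replicate 2, so the groups overlapped. The log2 change was -0.15 (SE 0.10, limma unadjusted p = 0.165).

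The direct AKT substrates of the FOXO and GSK3 families had a lower estimate in 4 of 5 cases, and 0 were called. Gsk3a, a kinase that inhibits glycogen synthesis, was among the steadiest members, at 28.1, 31.4 and 30.2 FPKM in Ctr and 29.9, 28.6 and 30.1 in KO replicates 1, 2 and 3. The KO values lay inside the range of Ctr (log2 change -0.02, SE 0.07). Its relative Gsk3b was at 9.27, 8.42 and 8.85 FPKM in Ctr and 7.02, 8.69 and 8.45 in KO, a log2 change of -0.13 (SE 0.10) in which KO replicate 1 was the low library.

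Foxo3, a transcription factor that AKT keeps out of the nucleus (ENSMUSG00000048756, chromosome 10, 42181841 to 42276755), varied the most among tested members. It was at 14.1, 16.7 and 18.1 FPKM in Ctr replicates 1, 2 and 3 and at 12.5, 19.1 and 24.1 in KO replicates 1, 2 and 3. Both libraries numbered 1 were below the other 4, and the KO values lay on both sides of Ctr. The log2 change was 0.14 (SE 0.22, 95% interval -0.38 to 0.66). It was 0.38 without KO replicate 1 (limma unadjusted p = 0.0382) and -0.06 without KO replicate 3. Foxo1 and Foxo4, of the same family, were at 5.55 and 14.2 FPKM over the 6 libraries, with log2 changes of -0.08 (SE 0.10) and -0.04 (SE 0.08). Foxo3 was singled out after its values were seen.

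**Figure D4:**
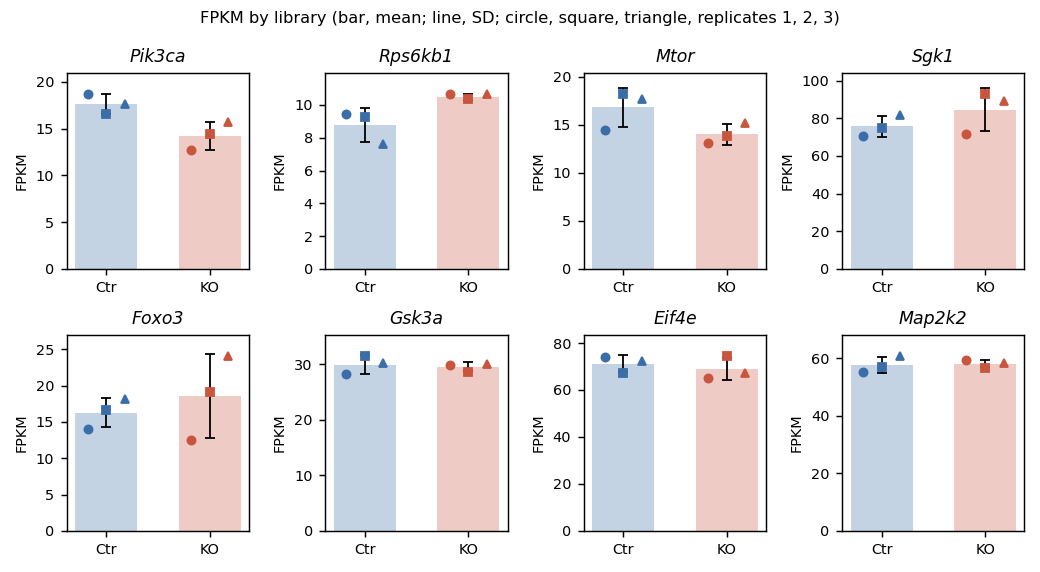
FPKM of 8 members in the 6 libraries (points), with the mean of each group (bar) and its SD (line, n = 3). The groups do not overlap for Pik3ca (16.5 or more in Ctr, 15.7 or less in KO) and Rps6kb1 (9.46 or less in Ctr, 10.3 or more in KO), and they overlap for the other 6.

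The TSC complex holds back the small GTPase RHEB, which activates mTOR, and mTOR works in complex 1 with RPTOR and in complex 2 with RICTOR. Of these 8 genes, 7 had a lower estimate in KO (median log2 change -0.09) and 0 were called. Mtor (ENSMUSG00000028991, chromosome 4, 148448611 to 148557683) was at 14.5, 18.2 and 17.7 FPKM in Ctr replicates 1, 2 and 3 and at 13.1, 13.8 and 15.2 in KO replicates 1, 2 and 3. Within each replicate number KO was below Ctr, but KO replicate 3 lay above Ctr replicate 1, so the groups overlapped. The log2 change was -0.24 (SE 0.11, 95% interval -0.49 to 0.02), with a limma unadjusted p of 0.0639. With the replicate number as a block the unadjusted p was 0.0337 and the adjusted p 0.878. Without both libraries numbered 1 the log2 change was -0.29 (limma unadjusted p = 0.0368).

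Rheb was the most abundant of the 8, at 52.1, 57.8 and 63.2 FPKM in Ctr and 55.4, 63.3 and 54.0 in KO replicates 1, 2 and 3. The groups lay on top of each other, with means of 57.7 ± 5.53 and 57.6 ± 5.01 (SD, n = 3 libraries). The interval of its log2 change ran from -0.23 to 0.23. Tsc2, the GTPase-activating subunit of the TSC complex, was at 29.5 ± 3.46 and 27.5 ± 0.563 FPKM, and Tsc1, its stabilizing partner, at 5.97 ± 0.288 and 6.03 ± 0.914 in Ctr and KO (SD, n = 3 libraries). The complex-specific subunits Rptor and Rictor had means over the 6 libraries of 6.23 and 2.85 FPKM and log2 changes of -0.07 (SE 0.11) and -0.16 (SE 0.12). Mlst8, the subunit shared by both complexes, was at 4.20 ± 0.316 and 3.72 ± 0.488 FPKM (log2 change -0.14, SE 0.12). Deptor, an mTOR inhibitor, had a mean of 20.6 FPKM and a log2 change of -0.09 (SE 0.12).

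Downstream of mTOR complex 1 lie the ribosomal S6 kinases and the 4E-binding proteins, which hold the cap-binding protein eIF4E until they are phosphorylated. Of these 5 genes, 2 had a higher estimate in KO and 0 were called. Rps6kb1, the gene of the main S6 kinase (ENSMUSG00000020516, chromosome 11, 86498871 to 86544805), was at 9.46, 9.27 and 7.59 FPKM in Ctr replicates 1, 2 and 3. In KO replicates 1, 2 and 3 it was at 10.7, 10.3 and 10.7. All 3 KO values lay above all 3 Ctr values, and Ctr replicate 3 was the lowest library. The means were 8.77 ± 1.03 and 10.5 ± 0.182 FPKM (SD, n = 3 libraries), a ratio of KO to Ctr of 1.20. The log2 change was 0.25 (SE 0.10, 95% interval 0.01 to 0.48), with an unadjusted p of 0.0423 and an adjusted p of 1.0 by limma. Without Ctr replicate 3 it was 0.16, the lowest value with any library left out.

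The other genes of this step overlapped between the groups. Rps6kb2, the related kinase, was at 14.7 ± 0.86 and 14.1 ± 0.782 FPKM in Ctr and KO (SD, n = 3 libraries). Eif4ebp1 was at 12.2, 10.8 and 8.80 FPKM in Ctr and 11.6, 12.2 and 12.4 in KO replicates 1, 2 and 3, with Ctr replicate 3 again the lowest library (log2 change 0.18, SE 0.12). Eif4ebp2, the more abundant 4E-binding protein here, had a mean of 35.8 FPKM and a log2 change of -0.06 (SE 0.09). Eif4e, the most abundant of the 5, was at 74.1, 67.1 and 72.5 FPKM in Ctr and 65.2, 74.4 and 67.1 in KO replicates 1, 2 and 3. Its values mixed between the groups (log2 change -0.05, SE 0.08).

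The adaptors and the RAS to ERK cascade had the narrowest range of log2 changes among the 6 roles, from -0.07 to 0.13, with 5 of 9 estimates higher in KO and 0 called. Map2k2, the MEK2 kinase gene, was at 55.4, 56.9 and 60.8 FPKM in Ctr and 59.3, 56.8 and 58.5 in KO replicates 1, 2 and 3. The KO values lay inside the range of Ctr, and the interval of the log2 change was -0.15 to 0.17. Map2k1, which encodes MEK1, had a mean of 32.1 FPKM and a log2 change of -0.05 (SE 0.09). Mapk3, the ERK1 gene, was at 40.1 ± 1.20 and 41.2 ± 6.16 FPKM in Ctr and KO (SD, n = 3 libraries), with KO replicate 1 the highest library at 48.2.

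Among the RAS genes Hras exceeded Nras, with means over the 6 libraries of 43.5 and 9.70 FPKM. Nras had the smallest p of this role, at 11.0, 8.22 and 8.46 FPKM in Ctr and 10.1, 10.7 and 9.63 in KO replicates 1, 2 and 3. Ctr replicate 1 was the highest library and the groups overlapped (log2 change 0.13, SE 0.12, limma unadjusted p = 0.302). Without Ctr replicate 1 it was 0.26 (limma unadjusted p = 0.0409), and without Ctr replicate 2 it was 0.06. Braf, the RAF kinase gene, was low and even, between 2.92 and 3.39 FPKM. The adaptors Shc1 and Gab1 and the RAS exchange factor Sos1 had means of 15.6, 8.80 and 4.15 FPKM and log2 changes of -0.07 (SE 0.10), 0.09 (SE 0.09) and -0.07 (SE 0.12).

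Ratios between related members compare genes within 1 library and do not depend on how libraries are scaled. Over 11 pairs, the ratios of Ctr and KO overlapped for 9. No test was made, and no share over pairs of other genes was taken for comparison. The exceptions were the pairs that hold Pik3ca and Rps6kb1. Ctr replicates 1, 2 and 3 had a ratio of Pik3ca to Pik3cb of 3.71, 3.29 and 2.81 and KO replicates 1, 2 and 3 one of 2.75, 2.6 and 2.8, where Ctr replicate 3 and KO replicate 3 nearly met. Ctr replicates 1, 2 and 3 had a ratio of Rps6kb1 to Rps6kb2 of 0.665, 0.650 and 0.483 and KO replicates 1, 2 and 3 one of 0.786, 0.689 and 0.774, so Rps6kb2 was the more abundant in all 6 libraries. These ratios hold the same values as the single members given above. The ratio of Hras to Nras ranged from 3.90 to 5.26 and that of Gsk3a to Gsk3b from 3.03 to 4.26. Akt1 exceeded Akt2 in all 6 libraries, at 1.14 to 1.45 times, while Pik3r1 and Pik3r2 were near parity at 0.817 to 1.19. Tsc1 was at 0.183 to 0.251 times the level of Tsc2, and Eif4ebp1 at 0.228 to 0.358 times that of Eif4ebp2.

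**Figure D5:**
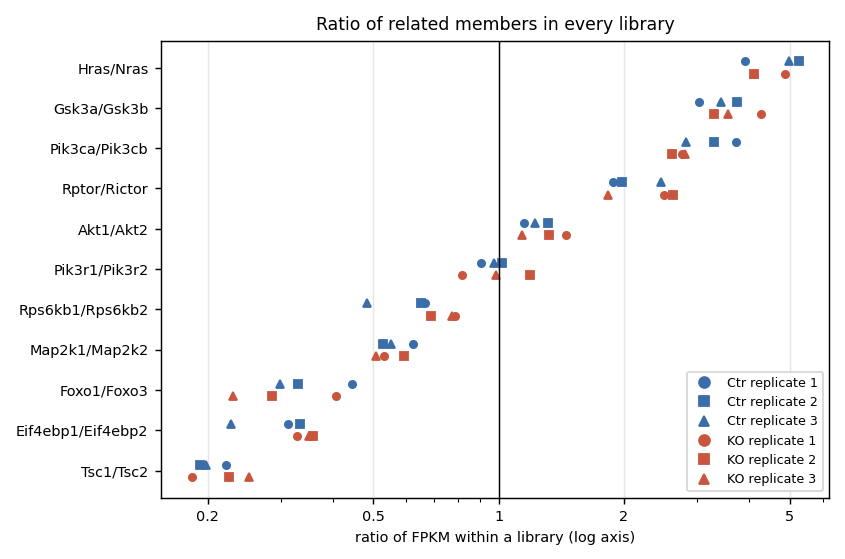
Ratio of the FPKM of 11 pairs of related members within each of the 6 libraries (log axis), with a line at equal levels. Ctr and KO points are separate for Pik3ca/Pik3cb (2.81 or more against 2.8 or less) and Rps6kb1/Rps6kb2 (0.665 or less against 0.689 or more) and mixed for the other 9 pairs.

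Within groups the members had a median SD of log2(FPKM + 1) of 0.12, against 0.15 over all genes tested. The highest such SD was that of Foxo3 (0.34). In 7 of 36 tested members (19.4%) both libraries numbered 1 lay below the other 4, against 11.2% of all genes tested. These were Pik3r1, Pdpk1, Sgk1, Foxo3, Tsc1, Deptor and Sos1. In 0 of 36 did they lie above, against 11.9% of all genes. Markers of podocytes and endothelium were high in the same libraries, as given above, and their part in these levels was not tested.

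For the wider pathway 90 further genes were taken in 6 lists, of which 83 were tested and 0 were called. An unadjusted p under 0.05 was reached by 1 of the 83 (1.2%), against 3.51% of all genes. This was Pik3c2a, a class II PI3K, at 13.7 ± 1.43 FPKM in Ctr and 11.2 ± 0.464 in KO (SD, n = 3 libraries, log2 change -0.27, SE 0.10, limma adjusted p = 1.0). Estimates were higher for 28 and lower for 55 of the 83, with a median log2 change of -0.04. Ctr and KO were separate for 6 genes, with 3 higher in KO (Ppp2r1a, Flcn and Rps6) and 3 lower, against 3.89% and 4.7% of all genes.

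Other genes were chosen by the smallest p of their lists. Of the AKT-related list, Ppp2r1a, a scaffold of protein phosphatase 2A, had a log2 change of 0.08 (SE 0.06) and the kinase Sgk3 one of -0.09 (SE 0.09). Among amino acid sensors upstream of mTOR complex 1, the arginine sensor Castor1 was at -0.31 (SE 0.14) and the lysosomal transporter Slc38a9 at -0.19 (SE 0.12). Of the translation list, Eif4ebp3, the third 4E-binding protein, had a log2 change of 0.37 (SE 0.17) and Eef2k, which inhibits elongation, 0.31 (SE 0.15). In the RAS to MAPK list, Mapk14, the p38 alpha gene, was at -0.17 (SE 0.12). The ERK-responsive genes Etv5 and Ier3 were at -0.25 (SE 0.15) and 0.21 (SE 0.20). The limma adjusted p was 1.0 for each of these genes.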

How the data were processed

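RNA from prominin-1-positive kidney cells of 3 Ctr and 3 KO libraries was profiled. The authors deposited FPKM values with 2 decimals. The submitters' processing notes name the tools STAR (2.6.0c), DESeq2 (1.28.1) and RSEM and give them no roles. The sources used here do not give a build, annotation or strand setting. GENCODE M21 (GRCm38), which matched 99.5% of identifiers, supplied the coordinates.

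The members and lists were chosen with earlier results of these data known. Values were used as log2(FPKM + 1), which understates changes of low genes, in limma 3.58.1 (R 4.3.3, intensity trend, two-sided, Benjamini-Hochberg over 12770 genes). Depth came from low FPKM steps of genes with 1 annotated transcript and was set where these fitted whole fragments best. At that depth 81.6 to 84.3% of these values lay within 0.25 fragments of a whole number. Counts were not recovered for other genes, so no count test was run. The fit was checked on made-up values with known changes, drawn independently for each library. It called 72% of 100 genes changed by a log2 of 1 in either direction and 96% of 100 changed by 2, with 12 false calls. In the real fit, where 3 genes were called, Igf1r at a log2 change of -1.55 was not. The rates from made-up values therefore do not carry over to the real fit. Changes as small as those of the members were not simulated, so the check does not bear on them.

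Full values are given for members with non-overlapping groups or an unadjusted p under 0.05 and for the highest and smallest-p member of each role, and up to 2 other genes per list are named by smallest p. Some genes under this rule are not reported here.

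Deviations from group means correlated by 0.63, 0.29 and 0.37 between same-numbered libraries, each above 0.1, and on that ground, which the labels do not state, the replicate block was run as a paired alternative. Of the pairs with unlike numbers, Ctr 3 with KO 2 (0.30) and Ctr 2 with KO 3 (0.15) were above 0.1 too. All log2 changes, SEs and intervals are from the unpaired fit unless the block is named. The alternatives were other pseudocounts, filters and scalings, the replicate block and leaving out libraries.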

Additional observations from a re-analysis of the deposited data

How the results depend on the processing

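No member was called in any of the 13 alternatives by limma (lowest adjusted p 0.878). Of the 90 other pathway genes 0 were called in each. Genes called over the whole table numbered 3, and 1 at a mean FPKM of at least 5, 5 without both libraries numbered 1, and 0 to 4 with a single library left out. Members with an unadjusted p under 0.05 numbered 2, and 0 to 3 with a single library left out, 3 with the replicate block and 1 without both libraries numbered 1. Which members these were changed with the library left out. Rps6kb1 was above 0.05 without Ctr replicate 3 or without any single KO library. Pik3ca was above it without Ctr replicate 1, Ctr replicate 3 or KO replicate 1. The block raised the share of all genes at that level from 3.51% to 5.64% and the count of genes called after adjustment from 3 to 4, and apart from Mtor it moved no member across an unadjusted p of 0.05.

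The direction of 20 of the 36 members held in all alternatives run for them, Pik3ca, Mtor, Rps6kb1, Sgk1 and Phlpp1 among them. Pik3ca ranged from -0.36 to -0.17 and Rps6kb1 from 0.16 to 0.30. The cause of the reversals of the others was not tested. Rheb turned to 0.01 with quantile normalization and 0.02 with median ratio scaling. Without both libraries numbered 1 the log2 change was -0.03 for Akt1, 0.01 for Akt2, 0.01 for Foxo1, 0.02 for Eif4e, -0.03 for Hras, -0.03 for Map2k2 and -0.09 for Mapk3. With a single library left out it ranged from -0.11 to 0.03 for Pik3r1, -0.09 to 0.05 for Pik3cb, -0.04 to 0.15 for Akt1, -0.10 to 0.01 for Akt2, -0.06 to 0.38 for Foxo3, -0.06 to 0.02 for Gsk3a and -0.07 to 0.11 for Tsc1. Those ranges were -0.07 to 0.06 for Rheb, -0.16 to 0.01 for Rptor, -0.19 to 0.02 for Deptor, -0.12 to 0.02 for Sos1, -0.04 to 0.12 for Hras, -0.02 to 0.05 for Map2k2 and -0.08 to 0.11 for Mapk3.

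Some members share sequence or exons with other genes, so the division of their reads is uncertain. Akt2 shares 21.4% of its 31-base words with the pseudogene Akt2-ps, Shc1 17.9% with AC123951.1 and Eif4e 9.07% with Gm7327. Exons of genes on the opposite strand cover 28.3% of those of Gsk3a, 23.7% of Rps6kb2 (Ptprcap) and 22.5% of Mlst8 (Bricd5). The library kit preserves strand, and no source used here says whether the counting used it.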
